A study of Neurospora crassa OR74A with 15 samples.

Results

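A small set of Neurospora crassa genes had several times more transcript on sucrose than under any other carbon condition tested, although some of them stayed at high levels throughout. A gene belonged to the set if its lowest value in the 3 sucrose libraries was at least 50 FPKM (fragments mapped to a gene, scaled for transcript length and library size) and at least 5 times its highest value in the 12 other libraries. Of 9733 genes joined across all libraries 22 met these thresholds, and 1 of them, ndi-1 (NCU00153), was on a list of 14 identifiers set aside, which left 21 genes. The genes were thus selected on their lowest sucrose value and their highest value elsewhere, and their difference between sucrose and the other conditions is given as a description, with no test.

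RNA came from mycelia of the wild-type strain FGSC 2489, a filamentous fungus that decomposes plant material. Cultures were started from 10-day-old conidia and grown in light for 16 h with 2% sucrose in Vogel's salts, then washed and kept for 4 h in fresh medium with 2% sucrose (3 libraries), 2% Avicel, which is microcrystalline cellulose (3), no carbon (3), 1% pectin (3), 1% orange peel powder (2) or 2% xylan (1). All groups share the strain, the salts and the growth on sucrose before the transfer, so the sucrose group is the one in which the sugar did not change. The labels credit the sucrose, Avicel and no-carbon libraries to an earlier study and the pectin, orange peel powder and xylan libraries to the present one, and where these sets are compared the origin of the libraries and the carbon source cannot be told apart. The sucrose libraries have controls of their own origin in Avicel and no carbon only. The design text describes the replicates as biological and the xylan library as single.

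The 9 libraries of the earlier study carry a read depth. It came to 60.4 megabases in Avicel replicate 1, 61.9 in sucrose replicate 1 and 209.3 to 1052 in the others, so low values of these 2 libraries are the least precise. The median gene lay at 70.9 to 78.4 FPKM on sucrose and at 81.6 to 92.7 elsewhere. A list of 8 markers of conidia and aerial hyphae was checked against the label of mycelium. Their summed level was 538 to 1787 FPKM on sucrose, where 1 to 4 of the 8 were listed at 0, 15178 to 41888 in the 6 libraries of the present study, 93001 to 158505 on Avicel and 345618 to 384354 without carbon. Summed levels of 7 mating genes were 253 to 318 FPKM on sucrose and 727 to 4795 elsewhere. Both sums were lowest on sucrose, the conidial sum being carried mostly by ccg-1 and eas. Levels of ccg-1 were 328 to 1411 FPKM on sucrose and 171706 to 301939 without carbon. Whether ccg-1 marks cell types here or follows the carbon source itself was not tested, and this limit holds wherever the conidial sum is used. Single markers could differ, and fl and acon-3 overlapped between sucrose and pectin. From the mating list, asd-1 lay at 40.6 to 166 FPKM on sucrose against 24.5 to 32.8 without carbon. It reached 820 to 1178 FPKM on pectin and 348 to 418 on orange peel powder. In those libraries asd-1 made up the largest part of the mating sum, which there mostly follows this 1 gene. Levels of sub-1 on sucrose (125.5 to 165.9 FPKM) overlapped those without carbon (126.2 to 243.2). At low levels, poi-2 was higher on sucrose (3.66 to 6.34) than on pectin, orange peel powder, xylan and Avicel (0 to 0.834). The part of these markers in the pattern was not tested. In RNA from whole mycelia, fewer cells that use a gene and less RNA per cell cannot be told apart.

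Of the 21 genes 12 have a symbol, and the pathways of several of these are as follows. The shikimate pathway makes chorismate, the precursor of phenylalanine, tyrosine and tryptophan. The methyl cycle carries a one-carbon unit from serine through folate to methionine and on to S-adenosylmethionine, which donates it to lipids, RNA and proteins. Pyridoxal phosphate, the active form of vitamin B6, is the cofactor of many amino acid enzymes, while pyruvate dehydrogenase and cytochrome c link sugar breakdown to respiration.

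On sucrose the 21 genes had mean levels from 139 to 29506 FPKM, with a median of 1603. The ratio of the lowest sucrose value to the highest value elsewhere had a median of 6.04 and reached 34.3. Together the genes made up 1.63 to 1.94% of the summed FPKM on sucrose, 0.326% on xylan, 0.186 to 0.261% on pectin and orange peel powder, and 0.0940 to 0.152% on Avicel and without carbon. Just inside the ratio of 5 lay nit-10 (5.002), ace-2 (5.02) and NCU08120 (5.09), and just outside lay cys-18 (4.999), NCU04699 (4.78) and arg-5 (4.78). Of these, arg-5 was also on the list of identifiers set aside, so it would not have joined the set at any ratio. The smallest of the lowest sucrose values was 123 FPKM, in NCU09695, and the nearest gene kept out by the limit of 50 FPKM was NCU00149 at 29.1 FPKM.

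**Figure D1:**
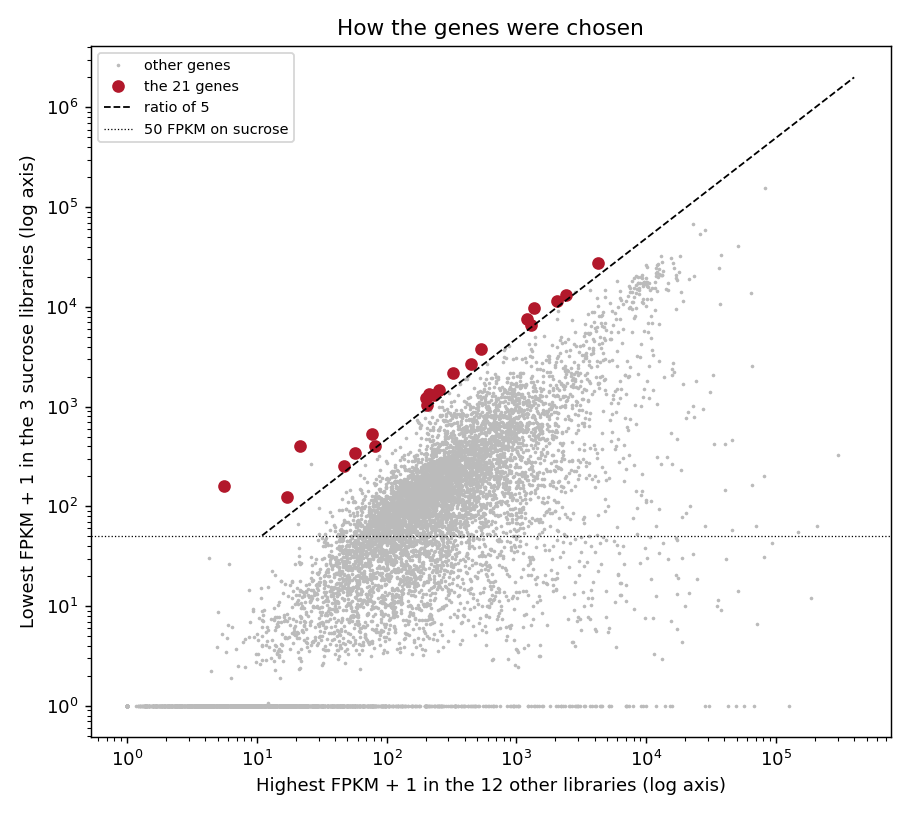
Each point is a gene, with its highest value in the 12 libraries without sucrose (horizontal) against its lowest value in the 3 sucrose libraries (vertical), both as FPKM + 1 on log axes. The 21 genes, in red, lie above the dashed line for a ratio of 5, most of them close to it, with NCU08473 (34.3) and NCU04942 (19.7) farthest away.

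**Figure D2:**
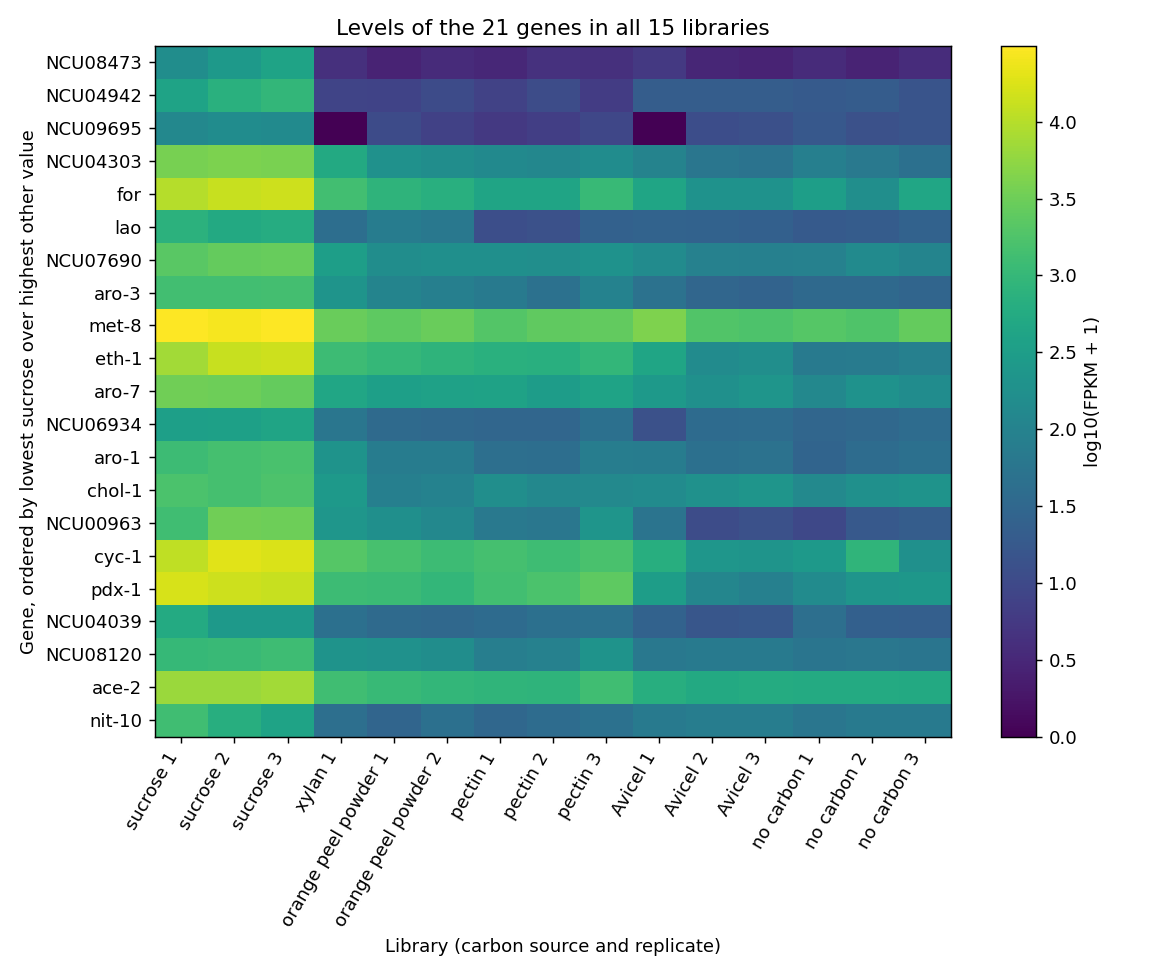
Colour gives log10(FPKM + 1) of each of the 21 genes in each of the 15 libraries. All genes are brightest in the 3 sucrose columns, and for 12 of them the xylan column is the next highest.

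Genes at the start, middle and end of the shikimate pathway were in the set. The gene aro-7 (NCU09817, contig 10.1, positions 4148075 to 4149847) encodes an enzyme of the entry step, DAHP synthase. It lay at 3300.1, 3189.7 and 2699 FPKM on sucrose, 447 on xylan, 344 and 366 on orange peel powder, 380.3, 300.1 and 396 on pectin, 272, 180.3 and 218 on Avicel and 126, 193 and 154 without carbon. Sucrose was far above all else, and pectin and orange peel powder overlapped each other but lay above Avicel and no carbon.

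The gene aro-1 (NCU01632, contig 10.2, positions 2892511 to 2897659; its synonyms aro-2, aro-4, aro-5 and aro-9 are names of mutants in the same gene) encodes the arom protein, a single chain that carries the enzymes of the middle steps. Its levels were 1209, 1486 and 1603 FPKM on sucrose, 202 on xylan, 76.6 and 77.1 on orange peel powder, 43.3, 41.4 and 79.4 on pectin, 77.5, 44.8 and 48.5 on Avicel and 27.2, 38.1 and 44.8 without carbon. Here xylan stood apart from the other plant materials, whose libraries overlapped.

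The chorismate synthase gene aro-3 (NCU05420, contig 10.2, positions 1583488 to 1585107), the last step, was the steadiest of the 21 on sucrose, at 1351, 1364 and 1432 FPKM. It lay at 209.8 on xylan, 104 and 86.0 on orange peel powder, 68.4, 46.6 and 97.6 on pectin, 48.2, 29.1 and 25.6 on Avicel and 33.3, 33.7 and 27.9 without carbon. On average sucrose exceeded no carbon 19.4-fold for aro-7, 39.1-fold for aro-1 and 43.7-fold for aro-3.

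Other genes of the pathway, which the rule did not choose, were tested between sucrose and no carbon with limma on log2(FPKM + 1). Calls required an adjusted p (Benjamini-Hochberg, over 8700 genes) below 0.05 together with a log2 fold change of at least 1 in size. Here 18.0% of genes were called higher on sucrose and 34.2% lower, the sucrose libraries lay wholly above the no-carbon libraries for 27.0% and wholly below for 44.9%, and the median log2 fold change over all genes was -0.38. All 7 further genes with an aro or trp symbol were higher on sucrose, with a median log2 fold change of 2.34. They included aro-6 and aro-8, which encode the other DAHP synthases, at 2536 ± 478 FPKM (SD, n = 3) against 119 ± 14.96 and 1236 ± 138 against 63.8 ± 10.5. The tryptophan synthase gene trp-3 was at 1694 ± 247 against 115 ± 30.2, and the anthranilate synthase gene trp-2 at 989 ± 251 against 191.7 ± 31.9. The list also holds trp-5, named after its values were seen because it encodes a tRNA synthetase rather than an enzyme of the pathway, at 758 ± 81.2 against 309 ± 17.4. Its call was lost under upper-quartile scaling (log2 fold change of 0.99). In the comparisons without sucrose, 3 of these 7 genes were called higher on Avicel than without carbon, 2 on pectin and 3 on orange peel powder, where 4.03%, 10.4% and 10.4% of all genes were called higher. The entry enzyme genes aro-6 (624 ± 337 FPKM on Avicel, 446 ± 59.2 on pectin) and aro-8 (156 ± 40.1 and 207 ± 14.7) were among them each time.

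The set held 4 genes of the methyl cycle and its use. The gene for (NCU02274, contig 10.7, positions 1152896 to 1155187) encodes cytosolic serine hydroxymethyltransferase, which loads the one-carbon unit of serine onto folate. It lay at 9757, 12915 and 14444 FPKM on sucrose, 1376 on xylan, 841 and 674 on orange peel powder, 424, 416 and 1072 on pectin, 432, 195 and 192 on Avicel and 329, 168 and 464 without carbon. Outside sucrose the xylan library was the highest, orange peel powder lay above Avicel and no carbon, and pectin overlapped with all 3 groups.

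The methionine synthase gene met-8 (NCU06512, contig 10.3, positions 1698305 to 1701771) had the highest level of the set. It lay at 31152, 27439.7 and 29925 FPKM on sucrose against 2917 on xylan, 2439.9 and 2964 on orange peel powder, 1935, 2489.6 and 2627 on pectin, 4283, 1844 and 1717 on Avicel and 2030.3, 1792 and 2729 without carbon. Outside sucrose its group means spanned 1.34-fold, the narrowest range among the 20 genes for which such a ratio could be formed, and Avicel replicate 1 held the highest value.

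The next enzyme gene, eth-1 (NCU02657, contig 10.1, positions 3091904 to 3094383), encodes S-adenosylmethionine synthetase and had the widest range. Its levels were 7530.0, 12987 and 14325 FPKM on sucrose, 1198 on xylan, 978 and 821 on orange peel powder, 698, 686 and 950.4 on pectin, 439, 147 and 165 on Avicel and 68.8, 74.5 and 88.6 without carbon. All libraries with a carbon source lay above all those without, and group means outside sucrose spanned 15.5-fold.

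The gene chol-1 (NCU08045, contig 10.4, positions 4012852 to 4016222) encodes a methyltransferase that uses S-adenosylmethionine to turn phosphatidylethanolamine towards phosphatidylcholine. It lay at 1643, 1466 and 1699 FPKM on sucrose, 253 on xylan, 84.3 and 96.9 on orange peel powder, 164, 124 and 129 on pectin, 147, 186 and 215 on Avicel and 128, 178 and 199 without carbon. In contrast to eth-1, its lowest libraries were those on orange peel powder.

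Of the 14 further genes with a met or cys symbol, 12 were higher on sucrose than without carbon, 0 lower, and their median log2 fold change was 2.64. The largest changes were in cys-11, which encodes ATP sulfurylase, the first enzyme of sulfate assimilation (5308 ± 1025 FPKM against 89.0 ± 17.4), cys-2 (2143 ± 169.9 against 64.9 ± 30.2), cys-18 (16828 ± 2272 against 1115 ± 93.3) and met-7 (793 ± 187 against 72.3 ± 8.85). Quantile normalization lowered the log2 fold change of cys-18 from 3.91 to 2.54. The 2 not called, named after their values were seen, were met-10 (441 ± 154 against 223 ± 13.8, log2 fold change 0.91) and cys-3, the regulator of sulfur uptake genes (1299 ± 39.9 against 751 ± 160.1, log2 fold change 0.81). Both passed the adjusted p threshold (0.00311 and 0.000848 by limma) and missed the fold change limit.

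**Figure D3:**
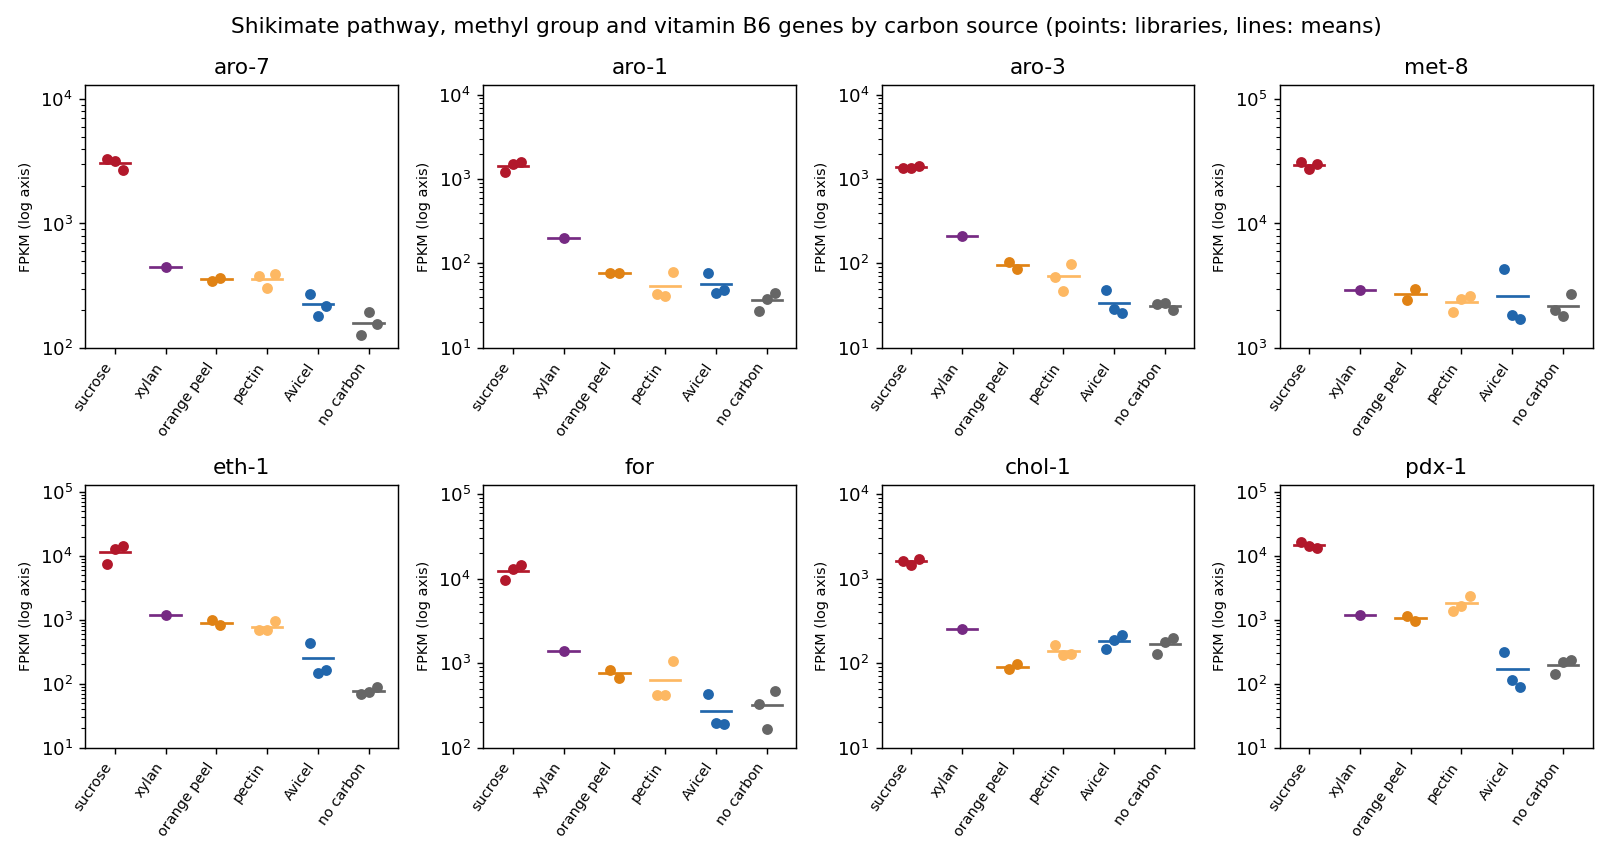
FPKM on log axes for 8 genes of the shikimate pathway, the methyl cycle and vitamin B6 synthesis, with 1 point per library and a line at each group mean. In each panel the sucrose points stand apart at the top. The genes differ below that, from the level profile of met-8 (1.34-fold between group means) to the stepped profile of eth-1 (15.5-fold).

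The vitamin B6 gene pdx-1 (NCU06550, contig 10.4, positions 1608319 to 1609701) encodes the synthase subunit of the enzyme that makes pyridoxal phosphate. It lay at 16419, 14043 and 13274 FPKM on sucrose, 1206 on xylan, 1159 and 944 on orange peel powder, 1381, 1648 and 2397 on pectin, 312, 115 and 87.8 on Avicel and 143, 215 and 234 without carbon. Pectin, not xylan, was next to sucrose here, and Avicel overlapped with no carbon.
Its neighbour on the contig is pdx-2 (NCU06549), the gene for the glutaminase subunit of the same enzyme, which was looked at after the values of pdx-1 were seen. It was at 1005, 1009 and 1007 FPKM on sucrose, 312 in pectin replicate 3 and 41.6 to 258 in the other 11 libraries, a ratio of 3.22. The limma log2 fold change of pdx-2 between sucrose and no carbon was 3.64 ± 0.290 (SE; limma adjusted p = 4.05e-07).

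The gene ace-2 (NCU06482, contig 10.3, positions 1563325 to 1565833) is one of those needed for the pyruvate dehydrogenase complex, which turns pyruvate into acetyl-CoA. Its levels were 6539.8, 6661 and 7327 FPKM on sucrose, 1302 on xylan, 1065 and 946 on orange peel powder, 859.6, 827 and 1287 on pectin, 654, 539 and 580.1 on Avicel and 549, 562 and 536 without carbon. Relative to the group mean it varied most on pectin, where replicate 3 was the highest, and it lay at 536 FPKM or more everywhere. The other acetate-requiring genes of that complex, ace-3 and ace-4, were looked at after these values were seen. They reached 5380 ± 609 against 269 ± 22.4 FPKM and 4757 ± 717 against 485 ± 56.6 (sucrose against no carbon), but had ratios of 3.62 and 3.42, set in both by the xylan library (1381 and 1244).

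Cytochrome c is the electron carrier between complexes III and IV of the respiratory chain. Its gene cyc-1 (NCU01808, contig 10.2, positions 2356068 to 2357579) lay at 11453, 19811 and 17131 FPKM on sucrose, 2048 on xylan, 1545 and 1202 on orange peel powder, 1483, 1246 and 1623 on pectin, 657, 227 and 209 on Avicel and 259.6, 855 and 176 without carbon. No-carbon replicate 2 lay above every Avicel library, so these groups overlapped.

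The nitrate transporter gene nit-10 (NCU07205, contig 10.5, positions 6248093 to 6250263) was the least steady of the set on sucrose, with 1310.4, 661 and 401 FPKM, a 3.27-fold range. It lay at 43.6 on xylan, 28.5 and 44.4 on orange peel powder, 30.9, 37.5 and 45.8 on pectin, 70.9, 79.6 and 80.2 on Avicel and 57.8, 68.3 and 70.3 without carbon. The earlier libraries without sucrose were all above those of the present study. The genes for the following enzymes, nitrate reductase (nit-3) and nitrite reductase (nit-6), were looked at after these values were seen. On xylan nit-3 lay at 464 FPKM and nit-6 at 2662, near or within their ranges on sucrose of 469 to 757 and 919.6 to 2909. Avicel replicate 1 held the highest nit-6 value of all libraries, 3030.04.

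The L-amino acid oxidase gene lao (NCU01066, contig 10.5, positions 2812718 to 2815064), whose product releases ammonia from amino acids, lay at 786, 530.0 and 616 FPKM on sucrose. Elsewhere it was highest on orange peel powder, at 75.9 and 61.3, with 40.5 on xylan, 26.3, 25.1 and 23.1 on Avicel, 17.9, 19.5 and 24.5 without carbon and 11.1, 12.1 and 24.0 on pectin. Orange peel powder did not overlap with pectin, Avicel or no carbon, whereas pectin replicate 3 lay within the range of the last.

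The 9 genes without a symbol include the ones most restricted to sucrose. NCU08473 (contig 10.2, positions 3532512 to 3538444) lay at 158, 264 and 397 FPKM on sucrose and at 1.78 to 4.61 in the 12 other libraries, a mean 118 times that without carbon. NCU04942 (contig 10.4, positions 813380 to 815354) lay at 404, 714 and 928 on sucrose and at 5.29 to 20.5 elsewhere, with the Avicel libraries (20.5, 20.2 and 20.4) at the top of that range. In both, sucrose replicate 1 was the lowest of the 3.

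NCU09695 (contig 10.5, positions 810262 to 811239) was the lowest of the set, at 123, 152 and 141 FPKM on sucrose, 11.96 to 16.0 without carbon, 4.66 to 9.43 on pectin and orange peel powder, 10.4 and 11.3 in Avicel replicates 2 and 3, and listed at 0 in the xylan library and Avicel replicate 1. NCU00963 (contig 10.1, positions 6561362 to 6563310) had the largest mean difference from no carbon in the set, 173-fold, with 1299, 3355 and 3144 on sucrose and 8.26, 16.9 and 19.9 without carbon. It lay at 231 on xylan, 173 and 124 on orange peel powder, 65.8, 59.8 and 217 on pectin and 52.6, 9.99 and 12.2 on Avicel. The Avicel replicates 2 and 3 fell within the range without carbon, and replicate 1 stood above it.

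NCU04303 (contig 10.5, positions 5558912 to 5561835) was steady on sucrose, at 3772, 4082 and 3961 FPKM, with 531 on xylan and 45.5 to 189.6 in the other libraries. The remaining 4 genes had mean ratios to no carbon under the median of the set (31.2). NCU07690 (contig 10.4, positions 2219768 to 2223060) lay at 2181, 2722 and 2806 FPKM on sucrose, 325 on xylan and 89.2 to 193 elsewhere. NCU08120 (contig 10.1, positions 343620 to 345467) lay at 1039, 1121 and 1267 on sucrose, and its next values were 204 in pectin replicate 3 and 199.8 on xylan.

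On sucrose NCU06934 (contig 10.7, positions 3431459 to 3433285) lay at 341, 357 and 422 FPKM, with 56.7 on xylan and 11.97 to 43.7 elsewhere. NCU04039 (contig 10.6, positions 2100676 to 2101540) lay at 563, 264 and 256, with 15.1 to 46.2 elsewhere, and its sucrose replicate 1 stood above the others. Mean sucrose levels were 22.8-fold above no carbon for NCU07690, 20.4-fold for NCU08120, 11.2-fold for NCU06934 and 12.5-fold for NCU04039.

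**Figure D4:**
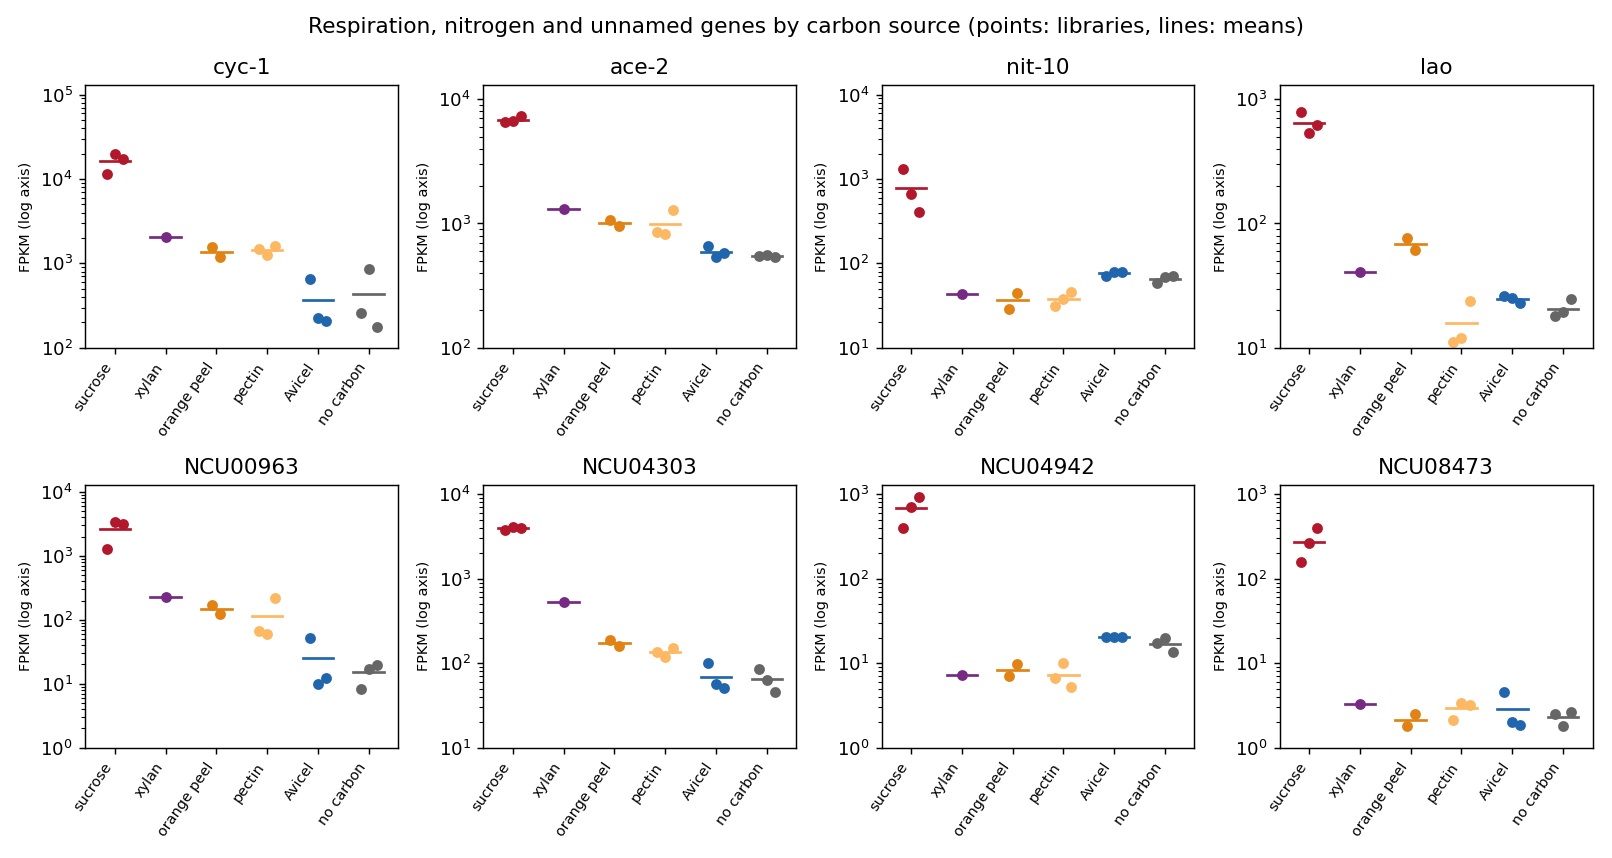
FPKM on log axes for ace-2, cyc-1, nit-10, lao and 4 genes without a symbol, with 1 point per library and a line at each group mean. For lao the orange peel powder points (75.9 and 61.3) lie above all pectin points (11.1 to 24.0), and for nit-10 and NCU04942 the Avicel and no-carbon points lie above those of the plant materials.

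The xylan library was next to sucrose for many of the genes. It held the highest of the 12 other values for 12 of the 21 genes (57.1%, against 14.2% of all 9733 genes, a share the rule itself can move). Relative to the mean without carbon, xylan was at least 4 times as high for 8 genes, led by eth-1 (15.5), NCU00963 (15.4), NCU04303 (8.23), aro-3 (6.63) and pdx-1 (6.10). It lay between 1 and 2 times that mean for 6 genes, among them met-8 (1.34), NCU08473 (1.41) and chol-1 (1.51). It was under it for nit-10 (0.666), NCU04942 (0.432) and NCU09695, which was listed at 0. As a single library it allows no test.

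The comparisons without a sucrose library were not used by the rule, except that it caps each gene's level there. The filter, a mean level of 1 FPKM or more in the 14 libraries of groups with replicates, kept all 21 genes, as it did without the sucrose libraries. Between Avicel and no carbon, both from the earlier source, 1 of the 21 genes was called higher and 0 lower, where 4.03% of all 8700 genes were called higher and 2.33% lower. The median log2 fold change was 0.12 over the 21 genes and -0.15 over all genes. The Avicel libraries lay wholly above the no-carbon libraries for 5 of the 21 genes and wholly below for 1, beside 10.7% and 20.6% of all genes. The gene called was eth-1, at 251 ± 164 FPKM on Avicel (SD, n = 3) against 77.3 ± 10.2 (n = 3), with a log2 fold change of 1.51 ± 0.365 (SE; limma adjusted p = 0.0216). This call was lost without no-carbon replicate 1 or 2 (limma adjusted p of 0.0733 and 0.0544) and with only these 6 libraries in the fit (0.118).

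Pectin against no carbon gave 8 genes called higher and 1 lower of the 21 (38.1% and 4.76%), beside 10.4% and 10.9% of all genes. The median log2 fold change was 0.66 over the set and -0.12 over all genes. The largest was that of eth-1, with a log2 fold change of 3.31 ± 0.365 (778 ± 149 FPKM against 77.3 ± 10.2), followed by pdx-1 with 3.18 ± 0.389 (1809 ± 527 against 198 ± 47.9). NCU00963 changed by 2.67 ± 0.648, cyc-1 by 2.08 ± 0.537 and aro-7 by 1.19 ± 0.191, and aro-3, NCU04303 and NCU08120 by 1.03 to 1.10. The log2 fold change of NCU00963 was 2.08 without pectin replicate 3, and its linear fold change was 1.55 times as large after quantile normalization. For cyc-1 the log2 fold change was 2.75 without no-carbon replicate 2. NCU04942 was the gene called lower, at 7.34 ± 2.44 against 16.9 ± 3.14. Pectin libraries lay wholly above the no-carbon libraries for 10 of the 21 genes and wholly below for 3, beside 23.7% and 33.3% of all genes. The calls of aro-3, NCU08120 and NCU04942 were lost without pectin replicate 3 (log2 fold changes of 0.82, 0.63 and -0.94) and those of aro-3 and NCU04303 without no-carbon replicate 3 (0.996 and 0.87). With a pseudocount of 5 aro-3 (0.998), NCU08120 (0.986) and NCU04942 (-0.84) were not called, nor was NCU08120 after upper-quartile scaling (0.954) or NCU04942 after quantile normalization (-0.80).

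Orange peel powder against no carbon gave 10 genes called higher and 0 lower (47.6%), beside 10.4% and 10.7% of all genes, with a median log2 fold change of 1.08 over the set and -0.14 over all genes. The libraries lay wholly above those without carbon for 13 of the 21 genes and wholly below for 4, beside 28.6% and 39.8% of all genes. The genes called were eth-1 (3.53 ± 0.408), NCU00963 (3.28 ± 0.724), pdx-1 (2.43 ± 0.435), cyc-1 (2.00 ± 0.600), lao (1.69 ± 0.299), NCU08120 (1.60 ± 0.300), aro-3 (1.55 ± 0.300), NCU04303 (1.47 ± 0.290), aro-7 (1.19 ± 0.214) and aro-1 (1.08 ± 0.317), given as log2 fold changes with SE. The 3 genes of the shikimate pathway were thus all called, while of the methyl cycle genes eth-1 alone was. For met-8 the log2 fold change was 0.32 (limma adjusted p = 0.503), for chol-1 -0.86 (0.0109, under the fold change limit) and for the gene for 1.35 (0.0577).

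The calls of cyc-1 and aro-1 on orange peel powder were lost without either orange peel powder library (limma adjusted p of 0.159 and 0.0800 for cyc-1, 0.122 and 0.102 for aro-1), and that of NCU00963 without replicate 1 (0.0650). In these fits the remaining library is assumed to vary like the other groups. The calls of cyc-1 and aro-1 were also lost without no-carbon replicate 1 (0.0722 and 0.0749), and that of cyc-1 without no-carbon replicate 3 (0.0897) and with the 2 groups alone (0.0567). With a pseudocount of 5 aro-1 missed the fold change limit (0.997). The log2 fold change of cyc-1 was 2.67 without no-carbon replicate 2, and that of NCU00963 was 3.92 after quantile normalization. The pectin and orange peel powder comparisons share the 3 no-carbon libraries, and both set libraries of the present study against the earlier one. The summed conidial markers were lower on pectin and orange peel powder (15178 to 41888 FPKM) than without carbon (345618 to 384354), and their part in these differences was not tested.

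Orange peel powder and pectin, both from the present study, gave 1 of the 21 genes called, with 0.149% of all genes called higher on orange peel powder and 0.161% lower. Orange peel powder libraries lay wholly above those on pectin for 2 of the 21 genes and wholly below for 3, beside 18.3% and 22.6% of all genes. The gene called was lao, at 68.6 ± 10.4 FPKM (SD, n = 2) against 15.7 ± 7.19 (n = 3), with a log2 fold change of 2.13 ± 0.299 (SE; limma adjusted p = 0.00978). It was among 13 genes called higher on orange peel powder in the whole table. The call was lost without pectin replicate 2 (limma adjusted p = 0.0604) or either orange peel powder library (0.262 and 0.109), with log2 fold changes of 1.98 to 2.28. For the other genes the log2 fold changes ran from -0.75 (pdx-1) to 0.62 (NCU00963).

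**Figure D5:**
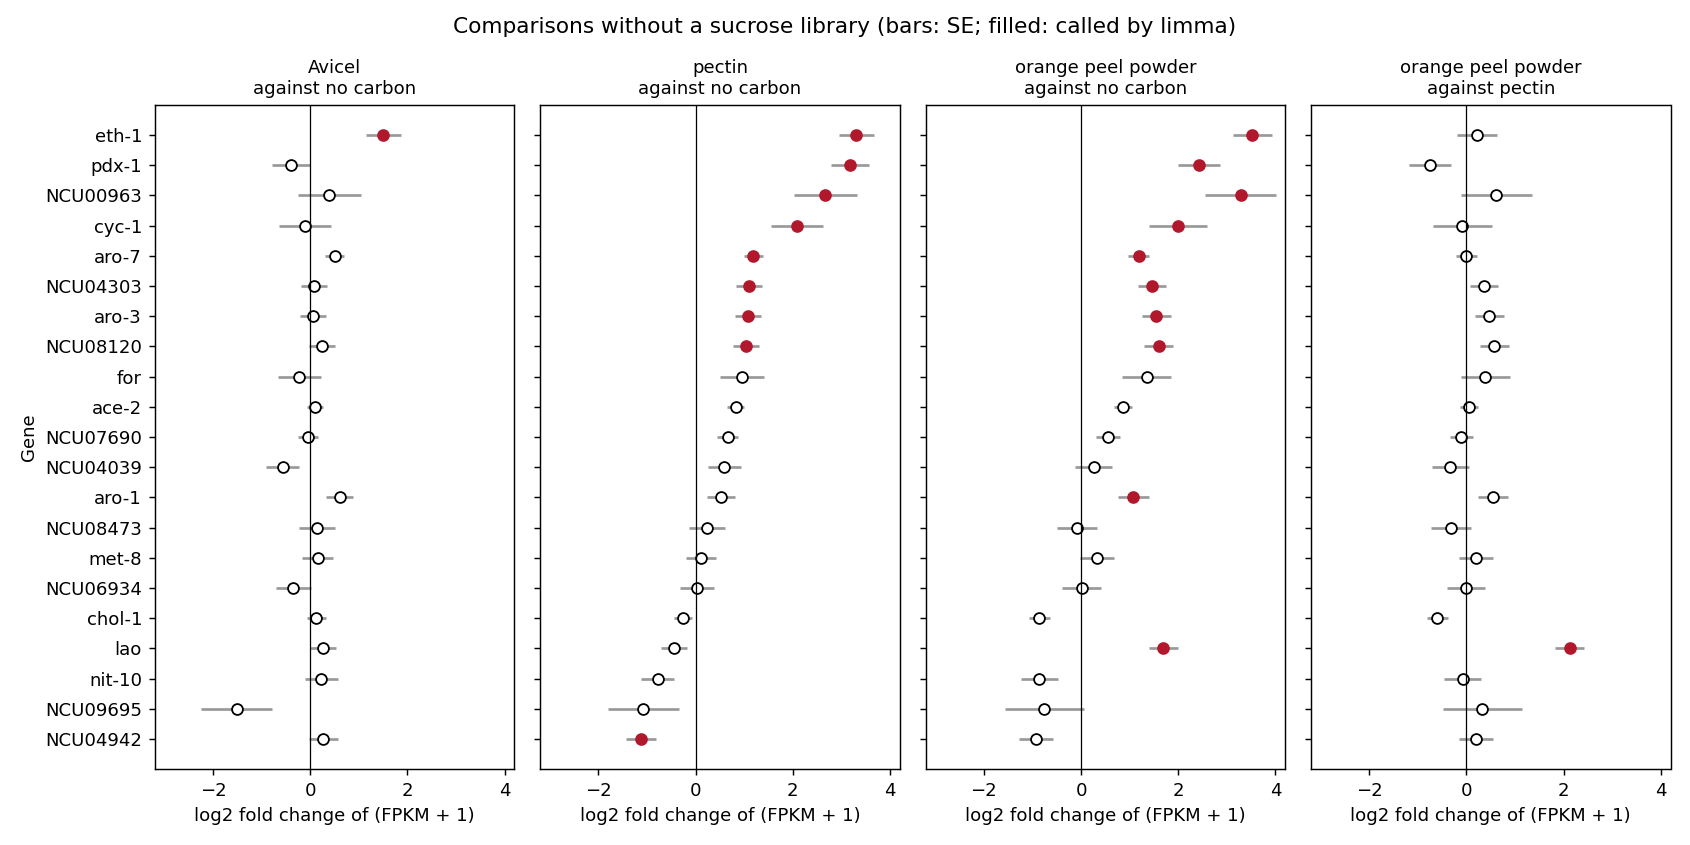
Log2 fold changes of FPKM + 1 with their SE for the 21 genes in the 4 comparisons that hold no sucrose library; filled points were called by limma. The numbers called are 1 for Avicel against no carbon, 9 for pectin and 10 for orange peel powder against no carbon, and 1, lao, for orange peel powder against pectin.

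Within groups, single libraries moved many of the genes at once. Pectin replicate 3 was the highest pectin library for 18 of the 21 genes (85.7%, against 34.8% of the 8700 tested genes), for example for the gene for (1072 against 424 and 416 FPKM) and NCU00963 (217 against 65.8 and 59.8). The conidial markers summed to 16037 FPKM in that library and to 41888 and 34310.5 in the other pectin libraries; their part in this was not tested. Avicel replicate 1, which had the least depth among the 9 earlier libraries, was the highest on Avicel for 16 genes (76.2%, against 35.4%), such as met-8, eth-1 and pdx-1. Its conidial markers summed to 93001, against 158263 and 158505 in the other Avicel libraries. The gap lay mainly in ccg-1 (52427 against 135310 and 138708), while con-10, con-13, fl and acon-3 were also lower in replicate 1. By contrast eas (34620 against 20371 and 17326), con-6 (2082 against 654 and 517) and con-8 (3628 against 1076 and 1138) were higher there. The part of the markers in this was not tested.

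On sucrose the libraries agreed within 1.5-fold for 14 genes and differed by more than 2-fold for 5 (nit-10, NCU00963, NCU08473, NCU04942 and NCU04039). The shallow sucrose replicate 1 was the lowest for 14 genes (66.7%, against 58.5% of tested genes) and so often set the ratio. Without it 65 genes would have met the rule, all 21 among them.

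The genes were spread over the genome. Contigs 10.1 to 10.7 held 4, 4, 2, 4, 4, 1 and 2 of them, and no gene had another of the set next to it. The closest, ace-2 and met-8, lay 29 genes and 135 kb apart. Each had a single annotated transcript and the same identifier in both kinds of table, and their transcripts had a median length of 1856 bases (775 to 5211), against 1599 over all genes. In the authors' deposited table of hierarchical clusters, made from 1 pooled value per carbon source, all 21 genes fell into the cluster that holds 2742 of 8664 genes (31.6%). Those values include sucrose, on which the 21 genes were selected, so this is a description only.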

How the data were processed

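Polyadenylated RNA from mycelia was sequenced in 15 libraries. The authors deposited FPKM values, per gene for 6 libraries and per transcript for 9. For these 9 the deposited tables also list read coverage (a signal not scaled for library size) and transcript length. A further deposited table gives 1 pooled FPKM value for each carbon source. Per the submitters' processing notes, the tools were TopHat 1.2.0, Cufflinks 0.9.3 and Cuffdiff, with no roles stated. The genome build is not given in the sources used here.

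Transcripts were summed per gene, and loci were joined by contig, start and end. Printed positions are 1-based. Gene symbols were looked up by locus tag in RefSeq's NC12 gene table (9215 of 9733 found; 1113 with a symbol). FPKM are not counts, so differences were tested on log2(FPKM + 1) with limma 3.58.1 (R 4.3.3), using a variance trend and the 14 libraries of 5 groups with replicates, for the 8700 genes whose mean reached 1 FPKM. Fold changes on this scale understate changes of low genes. Depth was taken as the median ratio of coverage to FPKM and is unknown for the other 6 libraries. The code was tested on simulated data. Alternatives were other pseudocounts, filters, scalings and fits, a replicate block and leaving out each replicate. Members, lists and tests were chosen with earlier results of these data known. With 21 members each may be named, and from a pathway list up to 4 called genes of large change. Replicate numbers were not taken to pair the libraries, since in no tested comparison with 3 pairs did all same-numbered libraries correlate above 0.1. Tests are two-sided. The lists of ribosome biogenesis and other word-based groups and the promoter motifs were not run, since the gene table used here has no descriptions or sequences.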

Additional observations from a re-analysis of the deposited data

Results flagged for a closer look

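The xylan library entered no test. Its value lay above every no-carbon library for 18 of the 21 genes, against 31.1% of the 8700 tested genes, and below every no-carbon library for 3 (nit-10, NCU04942 and NCU09695), against 49.6%. It was flagged because it holds signal above the control libraries outside the tested comparisons. It is 1 library without a replicate and from another source than the no-carbon libraries, so the difference was not tested.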

How the results depend on the processing

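Membership depends on the settings: 12 genes met the rule after quantile normalization, 16 after upper-quartile scaling, 85 at a ratio of 3, 2 at a ratio of 10 and 59 without the xylan library, and 21 to 65 when 1 sucrose library was left out. Scaling shifted the median log2 fold change of all genes between sucrose and no carbon by -0.28 (upper quartile) and 0.43 (quantile). For Avicel against no carbon, 0 of the 21 genes were called with the 2 groups alone (334 against 554 genes in the whole table) and 0 to 1 when leaving out a replicate. For orange peel powder against pectin the range was 0 to 1 as well. There the whole-table count of 27 became 187 with the 2 groups alone, 45 without sucrose libraries, 15 with the replicate block, 161 without Avicel replicate 1 and sucrose replicate 1 (a setting added after the data were seen) and 4 to 18 without a replicate. For pectin against no carbon the split of 8 higher and 1 lower became 8 and 0 under quantile normalization and 6 and 0 with a pseudocount of 5, and 6 to 9 genes were called without a replicate. For orange peel powder against no carbon 7 to 10 of the 21 were called without a replicate, and the whole-table count of 1838 became 808 to 1861. Without no-carbon replicate 1 the orange peel powder split of 10 higher and 0 lower became 8 and 1. Of 68 pathway genes outside the set, 58 were called higher and 5 lower between sucrose and no carbon (61 to 64 in all over the settings run), beside 18.0% and 34.2% of all genes.

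In no tested comparison with 3 pairs did every same-numbered pair of libraries correlate above 0.1 (-0.31 to 0.45 for Avicel and no carbon, -0.16 to 0.11 for pectin and no carbon, -0.12 to -0.020 for sucrose and no carbon). The 2 pairs of pectin and orange peel powder had 0.11 and 0.21, and the 3 pairs of Avicel and sucrose, which were not compared, 0.12 to 0.18. Over all 26 pairs 9 exceeded 0.1, and 4 of 14 libraries correlated best with their own number. With the replicate block 1, 9, 10 and 1 of the 21 genes were called in the 4 comparisons and 63 pathway genes on sucrose, as many as without it, although cyc-1 on orange peel powder lost its call (limma adjusted p = 0.0551). The depth of the pectin, orange peel powder and xylan libraries is unknown, and a value listed at 0 is not shown to be absent.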

Other observations

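Other lists, grouped by the stem of the gene symbol, were compared between sucrose and no carbon outside the set of 21. All 4 histidine genes (median log2 fold change 2.62), all 4 lysine genes (4.38), all 6 purine genes (3.65) and all 7 cytoplasmic ribosomal protein genes (4.08) were called higher by limma, as were 9 of 11 arginine genes and 8 of 9 genes with a leu or ilv symbol, beside 18.0% of all genes. The exception in the last list was ilv-5, at 110 ± 107 FPKM on sucrose against 747 ± 302 without carbon (log2 fold change of -3.11, and -3.87 without sucrose replicate 1). Within it, leu-5 and leu-6 encode tRNA synthetases. The histidine gene his-7 lost its call under upper-quartile and quantile scaling (log2 fold changes of 0.73 and 0.91) and without no-carbon replicate 2, sucrose replicate 2 or sucrose replicate 3 (0.90, 0.93 and 0.96). Of 2 pyrimidine genes, pyr-3 was higher and pyr-4 was not called (limma adjusted p = 0.0531).

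The 4 sugar transporter genes with a symbol were all called lower on sucrose, beside 34.2% of all genes. The high-affinity glucose transporter gene hgt-1 was at 190.3 ± 98.3 FPKM on sucrose and 2562 ± 402 without carbon, and the cellodextrin transporter genes cdt-1 and cdt-2 were at 52.9 ± 24.4 and 22.3 ± 23.9 against 437 ± 257 and 495 ± 26.9. For cdt-2 this was -4.94 on the log2 scale, and -4.30 without sucrose replicate 1, -5.77 without replicate 2 and -4.17 after quantile normalization. Quantile normalization lowered the log2 fold changes of all 7 ribosomal protein genes, although each kept its call. Examples are crp-7 (from 3.84 to 2.29), crp-2 (3.91 to 2.30) and crp-5 (3.88 to 2.81).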
